A study of Homo sapiens with 12 samples.

Results

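Integrins are receptors made of 1 alpha and 1 beta subunit that tie a cell to the matrix around it, and laminins are the trimers of an alpha, a beta and a gamma chain that build the basement membrane. All genes of a count table whose whole symbol names an integrin alpha, an integrin beta or a laminin chain were taken, which gave 38 of 28901 named genes, namely 18 integrin alpha subunits, 8 integrin beta subunits and 12 laminin chains. They were followed in 12 RNA-seq libraries of adipocytes grown from ASC52telo, an hTERT-immortalized line of human adipose stromal cells. The cells carried a lentiviral scramble shRNA or an shRNA against linc-ADAIN, a lincRNA of adipose tissue, were sorted for the ZsGreen of the vector, and were studied at day 14 of differentiation. LPS (100 ng/mL, 4 h) was added to one set of cells of each shRNA and not to another, and the 4 groups of 3 libraries are called here scramble, scramble with LPS, linc-ADAIN KD and linc-ADAIN KD with LPS. All groups therefore share the line, the vector type, the sorting method and the differentiation media, and the line is 1 immortalized culture. Infection, expansion and sorting went with the shRNA, and the paper lists 1 shRNA sequence against linc-ADAIN. A difference between the sorted pools or an off-target effect therefore cannot be told apart from the knockdown. The linc-ADAIN transcript was not analysed here, so the knockdown was taken from the labels.

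In adipose tissue, each mature adipocyte is wrapped in a basement membrane of laminins, type IV collagen, nidogens and perlecan, and precursor cells change their integrins as they leave a fibronectin-rich matrix and take up this laminin-rich coat. An alpha subunit largely sets the ligand. Alpha subunits that read the RGD motif bind fibronectin and vitronectin, another class binds laminins, and a class with an inserted I domain binds collagens. ITGB1 pairs with most alpha subunits, whereas ITGAV also pairs with ITGB3, ITGB5, ITGB6 and ITGB8. LPS acts on TLR4, whose signal reaches the transcription factor NF-kB.

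The libraries held 28.4 to 53.8 M (units of 1e6) estimated counts on named genes. Levels are given as CPM, counts per 1e6 counts after TMM scaling, and differences as log2 fold changes from edgeR's quasi-likelihood test on all 12 libraries, with the standard error (SE) and a Benjamini-Hochberg adjusted p. A gene was tested with at least 10 counts over the 12 libraries and was called at an adjusted p under 0.05. Of the 38 subunits 35 were tested, and ITGAM (6 counts in all), ITGB4 (9 counts) and LAMC3 (1 count) were not. The paper's figure legends describe the RNA-seq of scramble and linc-ADAIN KD cells as a single experiment in triplicate. For the groups with LPS no such statement was found. The p-values therefore measure the spread between the libraries of a group, which may be technical. They do not measure the spread between separate experiments. Mitochondrial transcripts took 8.09% to 9.4% of the counts in scramble, 10.7% to 12.1% in scramble with LPS, 11.6% to 14.0% in linc-ADAIN KD and 11.6% to 12.8% in linc-ADAIN KD with LPS, and their part in the differences below was not tested.

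The cells were checked against marker lists. The summed level of 12 adipocyte markers was 3321 to 4564 CPM in scramble, 3844 to 4460 CPM in scramble with LPS, 663.3 to 1968 CPM in linc-ADAIN KD and 535.7 to 1252 CPM in linc-ADAIN KD with LPS, so the KD libraries lay below every scramble library. Of these 12 markers, 8 were called lower in KD cells in the absence of LPS and 9 in its presence. The shares of all tested genes called lower were 14.3% and 14.1%. ADIPOQ, PLIN1, FABP4 and PPARG were among the markers called lower in both settings. The paper reports the opposite for these markers, with higher mRNA by qPCR and higher protein by western blot after the same knockdown. It also reports more stored lipid in the KD cells. Why the libraries differ from those assays was not tested. The 10 stromal and preadipocyte markers summed to 3833 to 4303 CPM in scramble and 3727 to 4427 CPM in linc-ADAIN KD, which overlapped. Their members went both ways, since of 8 tested 3 were called higher (PDGFRA, DPP4, COL1A1) and 3 lower (PDGFRB, THY1, ENG) in KD cells without LPS. Of other cell types, 7 smooth muscle and pericyte markers summed to 111.8 to 145.8 CPM in scramble and 29.4 to 36.6 CPM in linc-ADAIN KD, 10 leukocyte markers to 53.5 to 59.0 and 31.9 to 37.4 CPM, 7 endothelial markers to 23.8 to 27.3 and 12.1 to 12.6 CPM, and 7 epithelial markers to 0.609 to 1.01 and 0.938 to 1.64 CPM. The T cell and B cell genes CD3E and MS4A1 and the endothelial gene CLDN5 were at 0 in all libraries. Apart from the stromal and epithelial sums, these marker sums were lower in linc-ADAIN KD than in scramble. For leukocytes this does not hold across the list. Of its 7 tested markers, only CD68 was called lower in KD cells without LPS. With LPS, CD14 was called higher, and CD68 and FCGR3A lower. The part of the markers in the integrin and laminin differences was not tested. In bulk RNA, fewer cells of a type and less RNA per cell cannot be told apart.

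To compare subunits with each other, CPM was divided by the length of the MANE Select transcript in kb. On this scale ITGA5, the alpha subunit of the classical fibronectin receptor, led the alpha subunits of scramble cells with 77.8% ± 0.946 of their summed level (SD, n = 3). ITGAV followed with 10.1% ± 0.875 and ITGA7, a laminin receptor subunit, with 7.43% ± 2.13, and these neighbours in the order overlapped between libraries (ITGAV 9.30% to 11%, ITGA7 5.24% to 9.51%). ITGB1 made up 83.3% ± 0.485 of the beta subunits and ITGB5 16% ± 0.514. Among laminin chains the leaders were LAMA4 with 88.7% ± 0.237 of the alpha chains and LAMB1 with 82% ± 0.980 of the beta chains. With LAMC1 as gamma chain they form the trimer known for adipocyte and endothelial basement membranes.

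The summed level of the 17 tested alpha subunits was 733.9 ± 17.9 CPM per kb in scramble, 342.2 ± 16.3 in scramble with LPS, 334.0 ± 9.16 in linc-ADAIN KD and 162.0 ± 3.54 in linc-ADAIN KD with LPS (SD, n = 3 each). The 7 tested beta subunits moved over a narrower range, from 566.2 ± 34.6 CPM per kb in scramble to 479.1 ± 20.1 in linc-ADAIN KD with LPS. In linc-ADAIN KD with LPS the share of ITGA5 among alpha subunits was 50.7% ± 2.33 and that of ITGAV 27.6% ± 2.15. Laminin alpha chains summed to 177.5 ± 14.5 CPM per kb in scramble, 223.3 ± 5.57 in scramble with LPS, 92.5 ± 4.00 in linc-ADAIN KD and 95.1 ± 1.41 in linc-ADAIN KD with LPS. These sums and shares are descriptions and carry no test of their own.

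**Figure D1:**
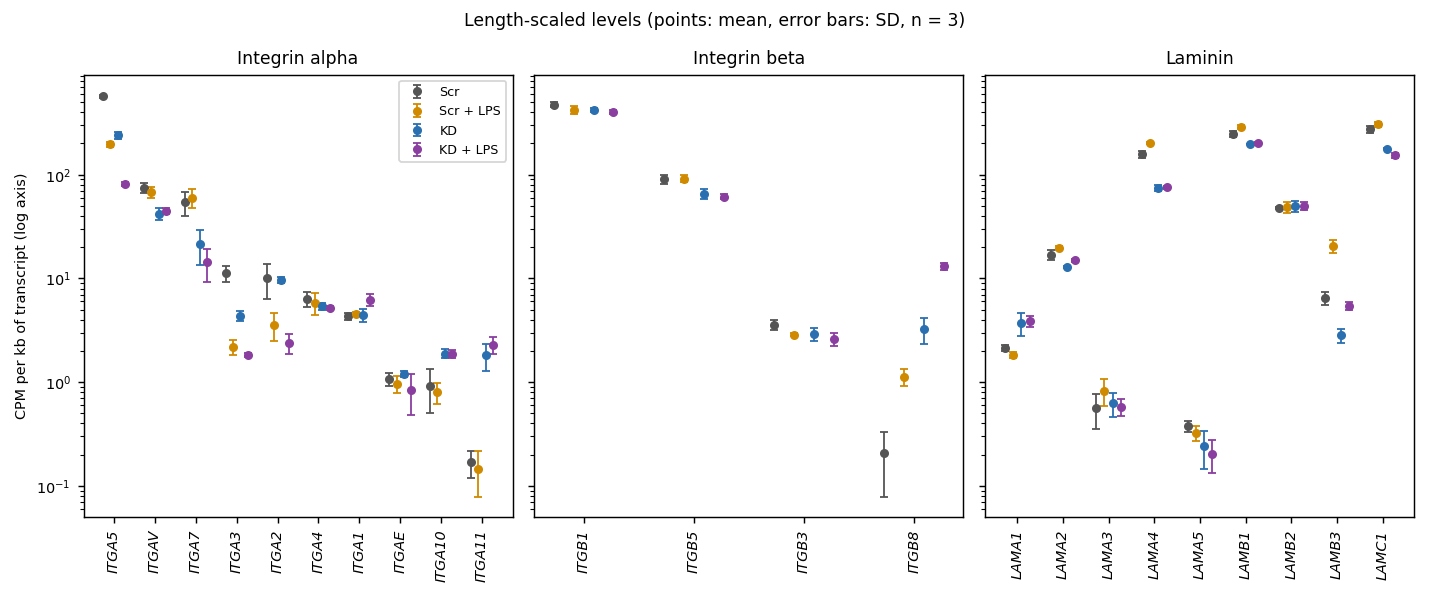
CPM per kb of transcript on a log axis for named subunits averaging 50 or more counts per library, as mean and SD over 3 libraries in scramble (Scr), scramble with LPS, linc-ADAIN KD (KD) and KD with LPS. ITGA5, ITGB1, LAMA4, LAMB1 and LAMC1 sit at the top of their classes in every group, and ITGB8 and ITGA11 cover the widest range between groups.

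The first question was how the subunits differed when linc-ADAIN was knocked down. Without LPS, 5 of the 35 tested subunits were called higher, against 11.2% of all 17173 tested genes, and 11 were called lower, against 14.3% of all genes. Those lower were 3 of 4 tested RGD-binding alpha subunits (ITGA2B, ITGA5, ITGAV), 2 of 3 laminin-binding ones (ITGA3, ITGA7), ITGB5, and the laminin chains LAMA2, LAMA4, LAMB1, LAMB3 and LAMC1. Those higher were 2 of 4 collagen-binding alpha subunits (ITGA10, ITGA11), ITGB2, ITGB8 and LAMA1. With LPS in both arms, 6 subunits were called higher (12.7% of all genes) and 10 lower (14.1% of all genes). Of these, 5 higher and 9 lower subunits were shared with the comparison without LPS. That comparison used other libraries, but of the same infected cells and in the same fit, so the sharing is not an independent repeat. At least a 2-fold difference was reached by 10 called subunits without LPS (7.26% of all genes) and 9 with LPS (8.3% of all genes). The median log2 fold change of the 35 subunits was -0.23 without LPS and -0.19 with LPS, beside 0.01 and 0.02 over all tested genes. Placing the subunits with a group at 0 counts at their bound left both medians as they were. With library size in place of TMM, the median of all genes moved by 0.11 in the comparison without LPS.

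Among the RGD-binding subunits, ITGA5 was at 2514, 2426 and 2339.5 CPM in the scramble libraries and at 1016, 954.7 and 1114 CPM in linc-ADAIN KD. With LPS it was at 830.2, 782.0 and 883.5 CPM in scramble and at 343.0, 366.2 and 338.1 CPM in linc-ADAIN KD. The KD libraries were all below the scramble libraries in both settings. ITGA5 fell by 1.24 on the log2 scale without LPS (SE 0.0736, adjusted p = 7.8e-10, edgeR) and by 1.25 with LPS (SE 0.0738, adjusted p = 4.4e-10, edgeR). The gene lies on chromosome 12 of GRCh38, from 54395261 to 54419266 on the minus strand, and its MANE Select transcript has 30 exons.

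ITGAV, which binds vitronectin and latent TGF-beta, fell by 0.83 without LPS (SE 0.108) and by 0.61 with LPS (SE 0.108), from 522.4 ± 58.2 to 294.4 ± 39.0 CPM and from 479.0 ± 62.3 to 314.1 ± 20.1 CPM (SD, n = 3). Its adjusted p-values in edgeR were 1.3e-05 and 0.00028. ITGB5, its most abundant partner apart from ITGB1, fell by 0.48 (adjusted p = 0.00066) and by 0.58 (adjusted p = 8.2e-05). ITGB1 itself was not called, with a log2 fold change of -0.16 (SE 0.0743, adjusted p = 0.14) without LPS and -0.08 (SE 0.0743, adjusted p = 0.49) with LPS. The common beta subunit was thus at 1762 ± 97.4 CPM in scramble and 1581 ± 72.3 CPM in linc-ADAIN KD, beside the lower alpha subunits.

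ITGB8, the partner of ITGAV in a receptor known for activating latent TGF-beta, went the other way. It was at 1.44, 0.970 and 3.14 CPM in scramble and at 23.1, 38.6 and 26 CPM in linc-ADAIN KD. With LPS it was at 8.31, 10.1 and 12 CPM in scramble and at 114.8, 108.5 and 128.5 CPM in linc-ADAIN KD. The 4 groups did not overlap. The rise with linc-ADAIN KD was 4.00 on the log2 scale without LPS (SE 0.283, adjusted p = 6.5e-09, edgeR) and 3.53 with LPS (SE 0.255, adjusted p = 6.0e-09, edgeR). Per kb of transcript ITGB8 reached 13.1 CPM in linc-ADAIN KD with LPS, still below ITGB5 at 61.3 in the same libraries. ITGB8 lies on chromosome 7 of GRCh38, from 20330702 to 20415754 on the plus strand.

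Of the laminin-binding alpha subunits, ITGA7 was at 162.9, 227.1 and 281.4 CPM in scramble and at 118.3, 91.3 and 54.3 CPM in linc-ADAIN KD, a fall of 1.35 on the log2 scale (SE 0.263, adjusted p = 0.00077, edgeR). With LPS it fell by 2.07 (SE 0.27, adjusted p = 1e-05, edgeR), from 189.9, 291.9 and 262.2 CPM to 79.4, 59.9 and 37.7 CPM. The groups did not overlap in either setting, although the libraries of each group were spread widely. ITGA3, a receptor subunit for several laminins, was at 43.6, 59.5 and 60.9 CPM in scramble and at 18.7, 22.3 and 23.3 CPM in linc-ADAIN KD, a fall of 1.35 (SE 0.14, adjusted p = 8.4e-07, edgeR). With LPS, where ITGA3 was low in both arms, its log2 fold change was -0.26 (SE 0.148, adjusted p = 0.22). ITGA6, the third of this class, had 494 counts over all libraries and was not called in either setting.

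The collagen receptor subunits were higher or not called. ITGA11, a receptor subunit for fibrillar collagen known from fibroblasts, was at 2.28, 1.60 and 1.29 CPM in scramble and at 14.6, 16.3 and 24.6 CPM in linc-ADAIN KD. With LPS it was at 2.20, 1.49 and 0.797 CPM in scramble and at 20, 21.7 and 28.5 CPM in linc-ADAIN KD. The lowest KD library was thus far above the highest scramble library in both settings. The log2 fold change was 3.42 without LPS (SE 0.294, adjusted p = 7.9e-08, edgeR) and 3.97 with LPS (SE 0.308, adjusted p = 1.5e-08, edgeR). ITGA11 lies on chromosome 15 of GRCh38, from 68296532 to 68432163 on the minus strand.

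ITGA10, a subunit best known from cartilage, was at 7.18, 4.01 and 3.07 CPM in scramble and 9.54, 8.82 and 10.8 CPM in linc-ADAIN KD, which gave a log2 fold change of 1.03 (SE 0.257, adjusted p = 0.0057, edgeR). With LPS it was 1.22 higher (SE 0.262, adjusted p = 0.0016, edgeR), at 4.93, 3.04 and 4.36 against 10.1, 8.58 and 10.3 CPM. ITGA1 was called only with LPS, at 49.5, 46.6 and 50.7 against 68.5, 57.6 and 75.2 CPM and a log2 fold change of 0.45 (SE 0.111, adjusted p = 0.0046, edgeR). The difference between its effects with and without LPS was 0.41 (SE 0.157, adjusted p = 0.29). ITGA2 was called in neither setting, with log2 fold changes of -0.06 (SE 0.211) and -0.59 (SE 0.222, adjusted p = 0.059). In the second setting it was called in 7 of the alternatives, with an adjusted p down to 0.0049.

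**Figure D2:**
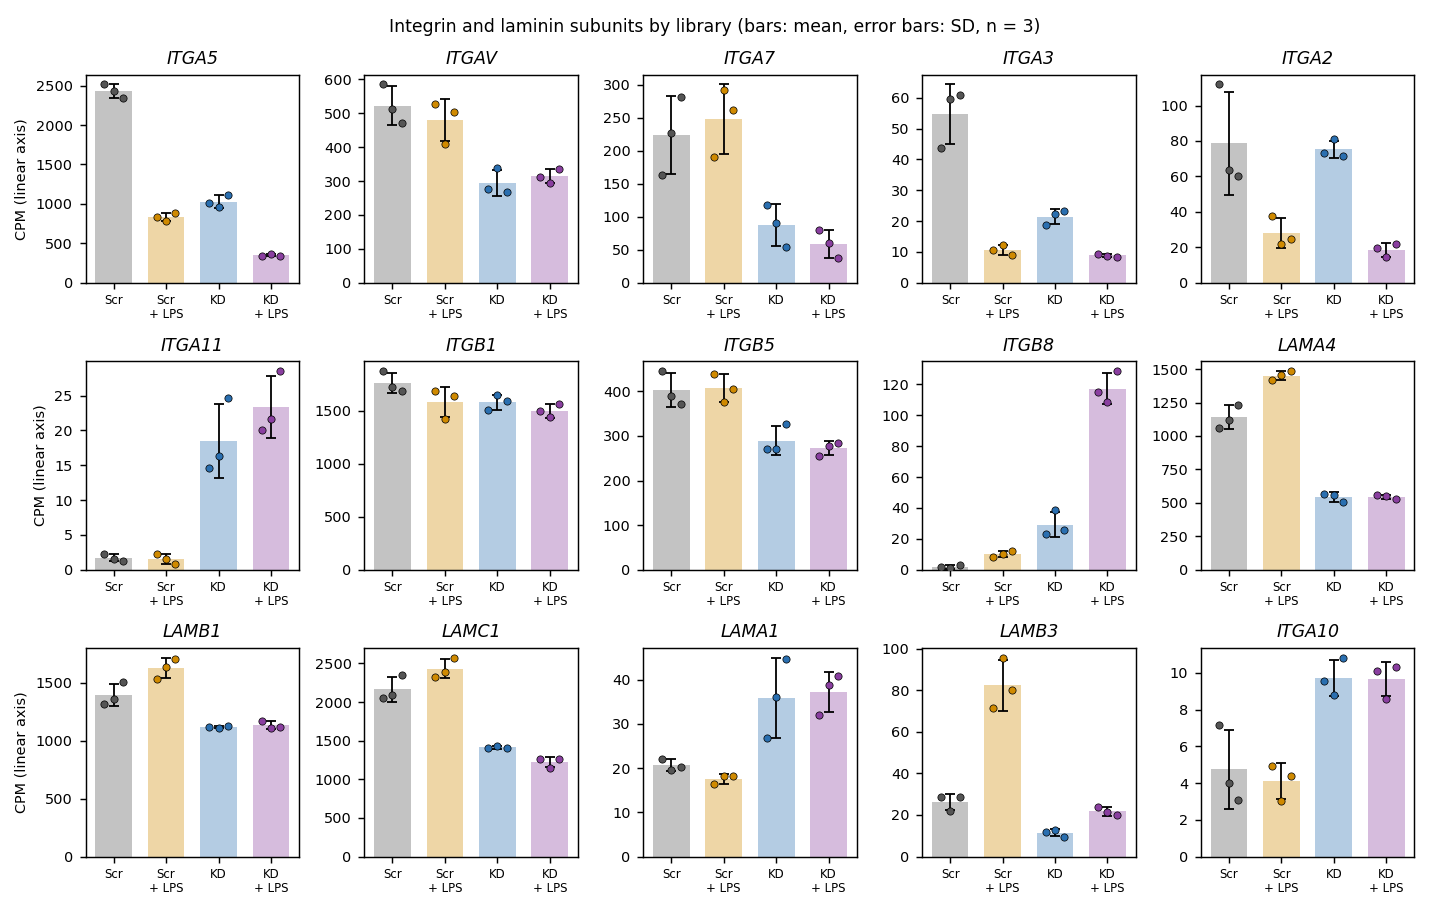
CPM on linear axes that start at 0 for 15 subunits, with a point for each library and bars for the mean and SD (n = 3) in scramble (Scr), scramble with LPS, linc-ADAIN KD (KD) and KD with LPS. ITGA5 is lowered in both the KD and the LPS libraries, ITGB8 is raised in both, and LAMA4, LAMB1 and LAMC1 are lower in the KD libraries.

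The RNAs of the chains of the main laminin trimer were lower in linc-ADAIN KD. LAMA4 was at 1057, 1122 and 1235 CPM in scramble and at 569.2, 556.7 and 502.4 CPM in linc-ADAIN KD, and with LPS at 1419, 1453 and 1482 CPM against 558.5, 550.8 and 530.5 CPM. Every KD library was below every scramble library. LAMA4 fell by 1.07 without LPS (SE 0.0725, adjusted p = 3.8e-09, edgeR) and by 1.41 with LPS (SE 0.0731, adjusted p = 1e-10, edgeR). Its partners moved less, as LAMC1 fell by 0.62 (SE 0.0705) and 0.99 (SE 0.0709) and LAMB1 by 0.32 (SE 0.0675) and 0.52 (SE 0.0676). The levels behind these values were 2166 ± 162.7 against 1413 ± 17.3 CPM for LAMC1 and 1396 ± 97.3 against 1119.9 ± 9.1 CPM for LAMB1 without LPS (SD, n = 3). All these calls passed the test, with adjusted p-values of 0.0016 or lower. LAMA4 lies on chromosome 6 of GRCh38, from 112107931 to 112254939 on the minus strand.

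LAMA2, the alpha chain of muscle basement membranes, fell by 0.40 in both settings (SE 0.0806 and 0.0807, adjusted p = 0.001 in each, edgeR). LAMB2, the alternative to LAMB1, was not called, at 271.6 ± 6.51 CPM in scramble and 282.2 ± 35 CPM in linc-ADAIN KD, a log2 fold change of 0.06 (SE 0.0976, adjusted p = 0.74). LAMA1, the alpha chain of early embryonic basement membranes, was higher in linc-ADAIN KD. It was at 22.1, 19.5 and 20.3 CPM in scramble and 26.7, 36.1 and 44.7 CPM in linc-ADAIN KD, a log2 fold change of 0.80 (SE 0.146, adjusted p = 0.00042, edgeR). With LPS the values were 16.3, 18.2 and 18.3 against 32.1, 38.8 and 40.7 CPM, a log2 fold change of 1.08 (SE 0.148, adjusted p = 2e-05, edgeR). Per kb LAMA1 stayed a small part of the alpha chains, with a share of 4.05% ± 1.18 in linc-ADAIN KD.

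LAMA3 and LAMB3 are chains of the laminin of epithelial anchoring sites. LAMB3 was at 28.4, 21.8 and 28.4 CPM in scramble and at 11.8, 12.8 and 9.48 CPM in linc-ADAIN KD, a fall of 1.20 on the log2 scale (SE 0.139, adjusted p = 3e-06, edgeR). With LPS it fell by 1.92 (SE 0.138, adjusted p = 5.5e-09, edgeR), from 71.5, 95.4 and 79.9 to 23.8, 21.4 and 19.9 CPM. LAMA3 was called in neither, and epithelial markers were at or near 0 in these cells.

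**Figure D3:**
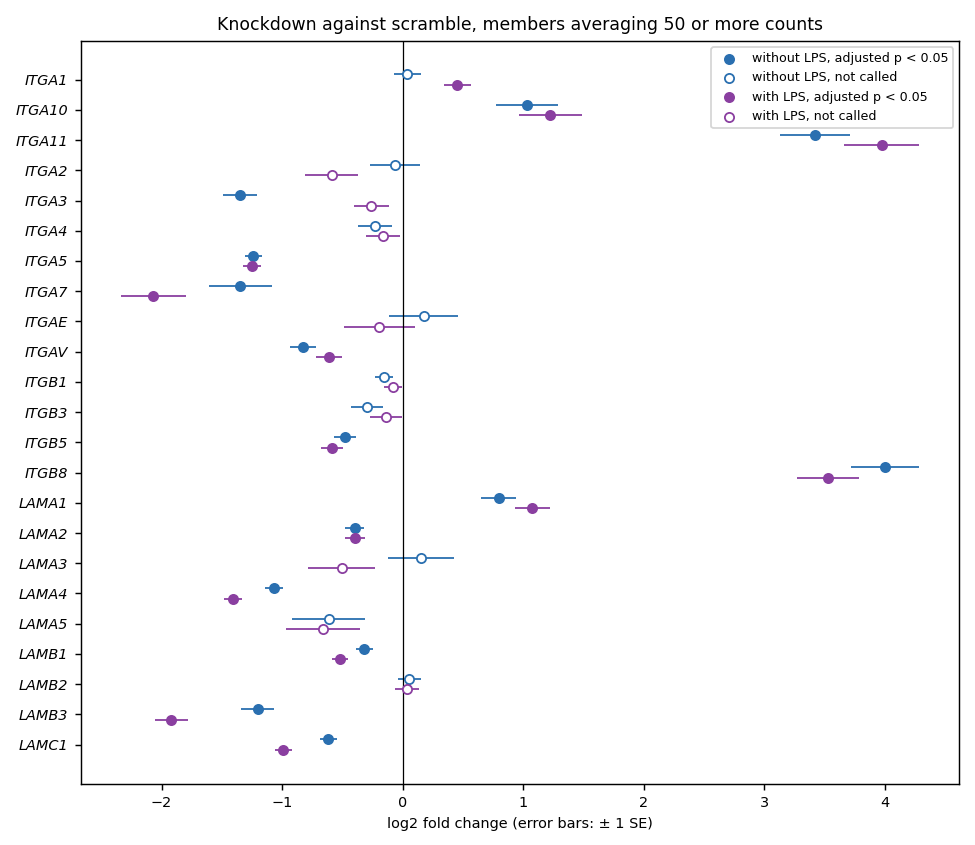
Log2 fold change of linc-ADAIN KD against scramble, with 1 SE, for named subunits averaging 50 or more counts per library, without LPS (blue) and with LPS (purple). Filled points have an adjusted p under 0.05 in edgeR, and ITGA11 and ITGB8 stand furthest to the right, between 3.42 and 4.00.

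A few called subunits rested on few counts. ITGB2, the beta subunit of leukocyte integrins, had 0, 1 and 0 counts in scramble and 29, 5 and 30 counts in linc-ADAIN KD, a ratio of 75.3 with an exact interval of 13.0 to 3019 that covers counting error only. It was called higher without LPS (adjusted p = 0.0029, edgeR) and with LPS (adjusted p = 0.048, edgeR), where it had 1, 2 and 6 against 20, 39 and 17 counts. The second call was lost in 13 alternatives, among them the fits without any one of 10 libraries, where the adjusted p reached 0.14 without scramble with LPS replicate 1. Its alpha partners ITGAL, ITGAX and ITGAD had 10 to 58 counts over all libraries and were not called. ITGA2B, known from platelets, had 10, 5 and 29 counts in scramble and 0 in each KD library (adjusted p = 0.023, edgeR), and with LPS it was not called. Set against a floor of 3 counts over the group, the fall was 12.5-fold. The exact interval of its ratio, for counting error only, ran from 0 to 0.103. The ITGA2B call was lost without scramble replicate 3 (adjusted p = 0.096) and without linc-ADAIN KD replicate 1, 2 or 3 (0.054, 0.062 and 0.06). ITGB7 had 3 counts in scramble and 45 in linc-ADAIN KD, a ratio of 17.6 (interval 5.66 to 88.7), and was not called (adjusted p = 0.17).

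The second question was the response to 4 h of LPS. In scramble, 4 subunits were called higher (5.28% of all genes) and 4 lower (8.11% of all genes), and in linc-ADAIN KD 3 were called higher (5.21% of all genes) and 4 lower (6.59% of all genes). ITGB8 and LAMB3 were higher, and ITGA2, ITGA3 and ITGA5 were lower, in both arms. The arms used different libraries but were fitted together, so they are not independent repeats. At least a 2-fold difference was reached by 5 called subunits in scramble (2.49% of all genes) and 4 in linc-ADAIN KD (2.21% of all genes). The median log2 fold change of the subunits was -0.14 in scramble and 0.00 in linc-ADAIN KD, where ITGAD had no counts in either group and was fitted at 0. Some marker sums were lower with LPS in scramble. Stromal and preadipocyte markers summed to 3523.5 to 3825 CPM in scramble with LPS, below the 3833 to 4303 CPM without it. Their ranges overlapped in linc-ADAIN KD, at 3417 to 3971 CPM with LPS and 3727 to 4427 CPM without it. Smooth muscle and pericyte markers summed to 63.6 to 88.6 CPM in scramble with LPS, below the 111.8 to 145.8 CPM without it. In linc-ADAIN KD they overlapped, at 31.1 to 35.4 CPM with LPS and 29.4 to 36.6 CPM without it. Endothelial markers summed to 15.5 to 17.2 CPM in scramble with LPS, below the 23.8 to 27.3 CPM without it. In linc-ADAIN KD they overlapped, at 8.48 to 13.8 CPM with LPS and 12.1 to 12.6 CPM without it. Leukocyte markers overlapped in scramble, at 56.4 to 69.6 CPM with LPS and 53.5 to 59.0 CPM without it. They also overlapped in linc-ADAIN KD, at 27.4 to 32.6 and 31.9 to 37.4 CPM. The part of these markers in the LPS differences was not tested.

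ITGA5 fell by 1.54 with LPS in scramble (SE 0.0742, adjusted p = 1.3e-10, edgeR) and by 1.56 in linc-ADAIN KD (SE 0.0743, adjusted p = 8.4e-11, edgeR). The 4 groups of libraries given above did not overlap. The interaction of linc-ADAIN KD with LPS for ITGA5 was -0.01 (SE 0.103, adjusted p = 1). ITGA2 was at 111.9, 63.5 and 60.5 CPM in scramble and at 37.5, 21.7 and 24.7 CPM with LPS, a fall of 1.49 (SE 0.219, adjusted p = 1e-04, edgeR). In linc-ADAIN KD it went from 73.0, 80.9 and 71.8 CPM to 19.8, 14.3 and 22 CPM, a fall of 2.01 (SE 0.225, adjusted p = 5.5e-06, edgeR). Both subunits pair with ITGB1, which was not called with LPS in either arm (-0.15 and -0.08, SE 0.0743 each).

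ITGA3 was the 1 subunit whose response to LPS was called different between the arms in the main fit. It was at 10.7, 12.4 and 8.95 CPM in scramble with LPS and at 9.34, 8.78 and 8.51 CPM in linc-ADAIN KD with LPS, beside the higher values without LPS given above. With LPS it fell by 2.36 on the log2 scale in scramble (SE 0.147, adjusted p = 3.5e-09) and by 1.27 in linc-ADAIN KD (SE 0.146, adjusted p = 7.7e-06). The interaction was 1.09 (SE 0.203, adjusted p = 0.01, edgeR), a call shared by 0.943% of all genes in this direction, and it stayed called with each library left out (log2 difference 0.98 to 1.23, adjusted p up to 0.046). A second subunit was called for the interaction without scramble replicate 3 or KD replicate 3. No subunit was called with an interaction in the other direction (0.332% of all genes). At an unadjusted p under 0.05 there were 4 such subunits, LAMA4, LAMB1, LAMB3 and LAMC1, and DESeq2 called 4 subunits in both directions together. ITGA3 lies on chromosome 17 of GRCh38, from 50055968 to 50090481 on the plus strand.

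ITGB8 rose with LPS by 2.48 in scramble (SE 0.285, adjusted p = 6.8e-06, edgeR) and by 2.00 in linc-ADAIN KD (SE 0.236, adjusted p = 1e-05, edgeR), and the interaction was -0.48 (SE 0.365, adjusted p = 0.7). LAMB3 rose by 1.65 in scramble (SE 0.136, adjusted p = 1.2e-07, edgeR) and by 0.93 in linc-ADAIN KD (SE 0.14, adjusted p = 0.00015, edgeR), with an interaction of -0.72 (SE 0.193, adjusted p = 0.088). LAMA4 and LAMB1 rose in scramble by 0.35 (SE 0.0717, adjusted p = 0.0024, edgeR) and 0.22 (SE 0.0675, adjusted p = 0.035, edgeR). The LAMB1 call was lost without scramble replicate 1 or 2 (adjusted p = 0.14 each) and without scramble with LPS replicate 2 or 3 (0.077 and 0.14). In linc-ADAIN KD the log2 fold changes of LAMA4 and LAMB1 were 0.01 and 0.02, and the interactions of -0.34 and -0.20 had adjusted p-values of 0.13 and 0.44, so that a difference between the arms was not called. ITGA1 was called higher with LPS in linc-ADAIN KD, with a log2 fold change of 0.49 (SE 0.111, adjusted p = 0.0064, edgeR), and not in scramble (0.07, SE 0.111).

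**Figure D4:**
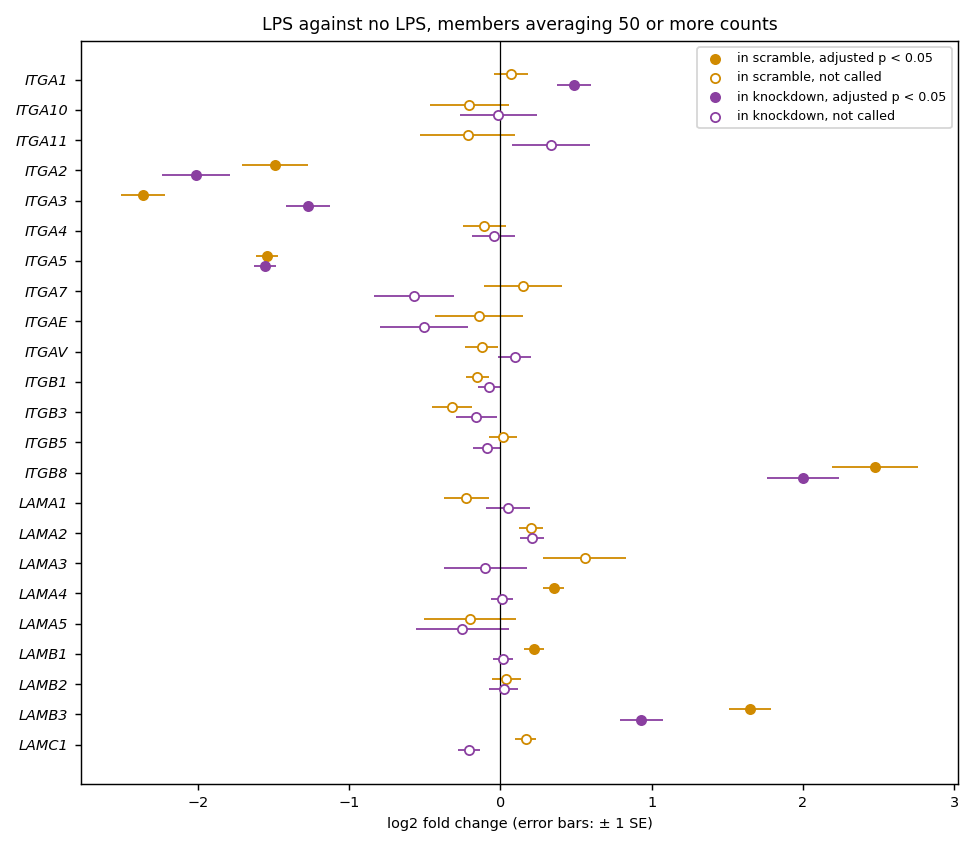
Log2 fold change with LPS, with 1 SE, for named subunits averaging 50 or more counts per library, in scramble (orange) and in linc-ADAIN KD (purple), where filled points have an adjusted p under 0.05 in edgeR. ITGA2, ITGA3 and ITGA5 lie between -2.36 and -1.27, and ITGB8 lies at 2.48 and 2.00. The bars of several subunits, among them ITGA3, LAMA4 and LAMB3, are apart between the arms. Of the subunits shown, only ITGA3 was called for the interaction.

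The bases before the start sites of ITGB8, LAMB3 and ITGA5 are shown as examples that each hold a match to the NF-kB consensus. With LPS, ITGB8 and LAMB3 were higher, and ITGA5 lower, in both arms. ITGA2 and ITGA3, also lower in both arms, are not shown, and ITGA2 had no such match in the bases searched. The bases shown come from the RefSeq promoter table on GRCh38.p14, are written in the direction of transcription, and carry in capitals the letters that match the NF-kB consensus on either strand.
LAMB3: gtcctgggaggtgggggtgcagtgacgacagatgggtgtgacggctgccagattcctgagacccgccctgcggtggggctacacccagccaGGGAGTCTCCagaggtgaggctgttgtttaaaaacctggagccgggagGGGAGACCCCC
ITGA5: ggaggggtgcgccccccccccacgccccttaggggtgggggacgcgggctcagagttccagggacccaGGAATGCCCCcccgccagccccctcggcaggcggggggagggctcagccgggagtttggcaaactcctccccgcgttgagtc
ITGB8: ccgcaggtctGGAGCCCCCCggggggccag
The stretch of LAMB3 is chr1:209652426-209652575 on the minus strand and that of ITGA5 is chr12:54419267-54419416 on the minus strand, each the 150 bases before the start site. For ITGB8, 30 bases around the match are shown, chr7:20330803-20330832 on the plus strand, since a longer GENCODE transcript of ITGB8 reaches into this stretch. The second run of capitals in LAMB3 holds overlapping matches.

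In the 250 bases before the start site, 26 of the 38 subunits had an entry in that table. A match to the NF-kB consensus was found in 7 of them (26.9%), against 9.96% of 35116 promoters, namely ITGA1, ITGA5, ITGA10, ITGA11, ITGB1, ITGB8 and LAMB3. The subunits were taken with 1 promoter each, whereas the 35116 promoters were not reduced to 1 per gene. The 7 include genes that were higher with LPS in both arms (ITGB8, LAMB3) or in linc-ADAIN KD only (ITGA1). They also include genes that were lower (ITGA5) and not called (ITGA10, ITGA11, ITGB1). The GC box GGGCGG was found in 13 (50%, against 42.6%), the TEAD motif GGAATG in 4 (15.4%, against 11.9%), and the AP-1 motif TGANTCA, the E-box CACGTG and the CArG box in 1 each (3.85%, against 6.57%, 6.34% and 1.16%). A match is a description of the letters on either strand, not a site of binding.

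Other genes of the pathway were counted from 3 lists. The lists were chosen with earlier results of these data known, so their counts beside the shares of all genes are descriptions only. Of 28 tested genes of the integrin activation and adhesion complex, 16 were lower and 1 higher in linc-ADAIN KD without LPS, with a list median of -0.52, beside 14.3% lower and 11.2% higher among all tested genes. With LPS again 16 were lower and 1 higher, with a median of -0.43, beside 14.1% and 12.7% of all genes. TLN2, a talin that switches integrins on, fell by 1.46 (SE 0.108, adjusted p = 1.1e-08, edgeR) and by 1.67 with LPS. TNS1, a tensin that links integrins to actin, fell by 1.41 (SE 0.0858, adjusted p = 1e-09, edgeR), from 500.8 to 188.6 CPM, and by 1.79 with LPS. TNS3 was the gene that rose, by 0.91 (adjusted p = 0.00011) and 1.26 (adjusted p = 3.4e-06). With LPS, 15 of the 28 were lower and 1 higher in scramble (8.11% and 5.28% of all genes), and 10 to 14 were lower with 1 library left out. In linc-ADAIN KD, 11 were lower with LPS (6.59% of all genes), and 7 were lower without linc-ADAIN KD replicate 3. The focal adhesion proteins ZYX and PXN fell by 1.00 each in scramble (adjusted p = 1.3e-06 and 8.5e-07), and by 0.86 and 1.08 in linc-ADAIN KD. TNS1 rose by 0.59 in scramble (adjusted p = 7.9e-05).

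Of 21 basement membrane partners of laminins, 10 were lower and 1 higher in linc-ADAIN KD without LPS, and 9 lower and 1 higher with LPS, beside the same shares of all genes (14.3% lower and 11.2% higher, then 14.1% and 12.7%). The type IV collagen chains COL4A1 and COL4A2, which lie next to the laminin sheet, fell by 1.55 (SE 0.0743, adjusted p = 7.9e-11, edgeR) and 1.46 (SE 0.0729, adjusted p = 1.2e-10, edgeR), and by 1.90 and 1.80 with LPS. COL4A6 fell by 2.24 (SE 0.445) and COL18A1 by 2.74 (SE 0.275). NTN1, a laminin-related netrin, rose by 5.47 (SE 0.514, adjusted p = 2.3e-07, edgeR) from 0.0865 to 3.95 CPM. With LPS in scramble, NID1 and HSPG2, the nidogen and perlecan that bind laminin, rose by 0.29 (adjusted p = 0.028) and 0.45 (adjusted p = 0.012), and NTN4 fell by 0.62. In linc-ADAIN KD with LPS, NID2, COL4A1 and COL4A2 fell by 0.37, 0.26 and 0.23. The LPS counts, 2 higher and 1 lower of 21 in scramble and 3 lower in linc-ADAIN KD, stand beside 5.28% higher and 8.11% lower, and 6.59% lower, of all genes, and the scramble counts are near that background. They also depend on single libraries. Leaving 1 out gave 0 to 2 higher and 0 to 2 lower in scramble, which moved without scramble replicate 1 or 2 or scramble with LPS replicate 2 or 3. It gave 0 to 1 higher and 1 to 3 lower in linc-ADAIN KD, which moved without KD replicate 1 or 3 or KD with LPS replicate 2 or 3.

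Of 21 other matrix ligands, 8 were lower and 6 higher without LPS, and 8 lower and 9 higher with LPS, beside 14.3% lower and 11.2% higher, and 14.1% and 12.7%, of all genes. TNC, the tenascin read by several integrins, fell by 1.68 with LPS present (SE 0.0954), and TGFBI fell by 2.12 (SE 0.123). VTN, the ligand of ITGAV with ITGB5, fell by 3.15 without LPS (SE 0.526, adjusted p = 0.00017, edgeR), from 2.51 to 0.275 CPM. ICAM1 and VCAM1, cell-surface ligands of leukocyte integrins, rose by 1.61 (SE 0.136) and 2.13 (SE 0.355) in linc-ADAIN KD without LPS, and by 2.69 and 2.90 with LPS in scramble. With LPS, 4 of the 21 were higher and 6 lower in scramble (5.28% and 8.11% of all genes), and 5 higher and 5 lower in linc-ADAIN KD (5.21% and 6.59% of all genes), where 3 to 5 were higher with 1 library left out (fewest without KD replicate 1 or 2 or KD with LPS replicate 3). CCN1 and CCN2, matrix proteins that bind integrins, fell with LPS by 1.39 and 1.76 in scramble and by 0.92 and 0.82 in linc-ADAIN KD. For CCN2 the interaction was 0.94 (SE 0.215, adjusted p = 0.037, edgeR).

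**Figure D5:**
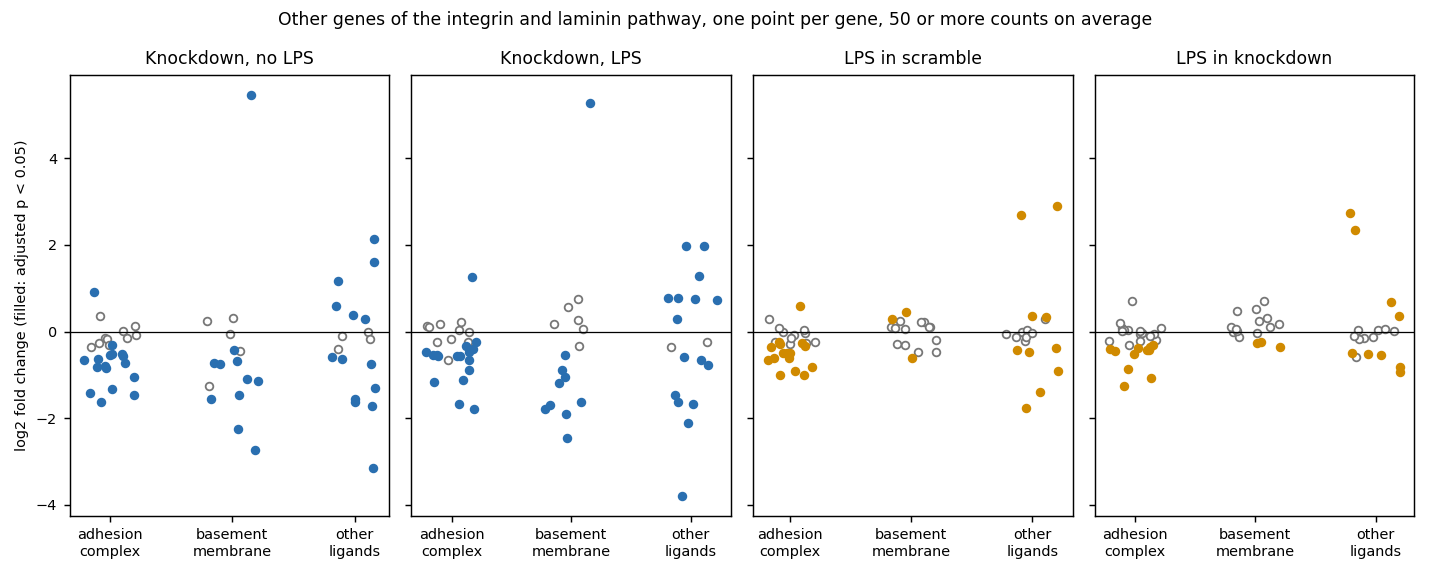
Log2 fold change of single genes in 3 lists of pathway genes averaging 50 or more counts per library, for linc-ADAIN KD (no LPS, then LPS) and for LPS in scramble and in linc-ADAIN KD. Filled points have an adjusted p under 0.05 in edgeR, and the highest point in the knockdown panels is NTN1, at 5.47 and 5.29.

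Some subunits overlap other genes in exons of GENCODE release 44. ITGA1 shares exon bases with PELO on the same strand (26128 and 13108 counts over all libraries), so its counts are uncertain to that extent. ITGA7, LAMB1 and LAMA5 share exon bases with genes on the opposite strand, and ITGA5, ITGB8 and LAMA4 with opposite-strand lncRNAs that have no row in the table. The library kit keeps the strand, but whether the counting used it is not given in the sources used here.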

How the data were processed

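Reads of 12 polyA RNA libraries were demultiplexed with bcl2fastq 2.19 and assigned to GRCh38 transcripts with kallisto 0.44.0, as the submitters' processing notes name them, and the authors deposited the estimated counts per gene name, not normalized for depth or length. The annotation release is not given in the sources used here. A row without a gene name (0.235% to 0.306% of counts) was left out, and counts were rounded. Here, edgeR 4.0.16 in R 4.3.3 kept 17173 genes with at least 10 counts in total, scaled libraries by TMM and fitted the 4 groups together for its quasi-likelihood F test, and p-values were adjusted by Benjamini-Hochberg. The SE is the size of the log2 fold change divided by the square root of F. Alternatives were DESeq2 1.42.0, other scalings and filters, fits on 6 libraries, the replicate number as a block, thinning and each library left out. The members and gene lists were chosen with earlier results of these data known. Values in every library are given for subunits called with at least a 2-fold difference or an interaction and for up to 3 of the largest rises and falls per comparison averaging 50 counts. Other subunits are given by counts or where they complete a known dimer or trimer. From each other list, up to 3 rises and 3 falls per comparison were named, of which the text gives a part. Counts limit the precision of subunits under about 50 counts, and intervals cover counting error only. The steps were tested on simulated data. One subunit is in the counts and medians but is not reported here by its own values.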

Additional observations from a re-analysis of the deposited data

Results flagged for a closer look

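The response of ITGA3 to LPS differed between scramble and linc-ADAIN KD by the test of the interaction, with a difference in log2 fold change of 1.09 (SE 0.203, adjusted p = 0.01, edgeR's quasi-likelihood test on 12 libraries). ITGA3 was lower with LPS in 3 of 3 libraries of each arm, and it was at 54.7 ± 9.58 and 10.7 ± 1.70 CPM in scramble without and with LPS, whereas the KD cells had 21.4 ± 2.44 and 8.87 ± 0.423 CPM (SD over 3 libraries). The groups have 3 libraries each, so single libraries far from their group were not looked for.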

How the results depend on the processing

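Of 79 subunit results tested under the alternatives, 58 kept their direction and their side of the threshold in every one. All 48 called results kept their direction, and 43 stayed called throughout. The exceptions include ITGA2B and ITGB2, which rest on few counts, and LAMB1 with LPS in scramble, all given in the report. The number of subunits called for the interaction was 1, and it was 4 with DESeq2 and 2 with genes of at least 1 count, while it was 1 to 2 with each library left out, namely 2 without scramble replicate 3 or linc-ADAIN KD replicate 3. The replicate numbers were not taken as pairs. Deviations from the group means correlated at -0.169 to 0.271 between same-numbered libraries (5 of 18 over 0.1) and at -0.203 to 0.143 between others (3 of 36 over 0.1). Between scramble and scramble with LPS each library correlated best with its own number (0.271, 0.117 and 0.0884), a hint from the data and not the design. With the replicate block, 16, 16, 8 and 7 subunits were called for KD without LPS, KD with LPS, LPS in scramble and LPS in KD, and 1 for the interaction, and the ITGB2 call with LPS had an adjusted p of 0.075. Scaling by library size alone turned the direction of 3 uncalled results, ITGA2 with KD without LPS (0.044), LAMA1 with LPS in KD (-0.0011) and LAMA4 with LPS in KD (-0.041). With each library left out, uncalled log2 fold changes that crossed 0 ranged from -0.031 to 0.15 for ITGA1 and -0.22 to 0.28 for ITGA2 with KD without LPS. With LPS in scramble they ranged from -0.44 to 0.22 for ITGA10, -0.64 to 0.11 for ITGA11 and -0.036 to 0.35 for ITGA7. With LPS in KD they ranged from -0.081 to 0.065 for ITGA10, -0.24 to 0.69 for ITGB2, -0.12 to 0.23 for LAMA1 and -0.051 to 0.046 for LAMA4. For the interaction they ranged from -0.23 to 0.43 for ITGA10 and -0.079 to 0.031 for ITGA5. The cause of these changes was not tested. Thinning every library to the smallest total was added after the data were seen, as were the alternatives for the other lists. Depth limits the subunits with few counts, and 3 libraries a group limit small differences.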
